A study of Mus musculus with 17 samples.

Results

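The genes described here encode the proteins of the mitochondrial ribosome. They are the 78 protein-coding genes of the mouse whose symbol is Mrpl or Mrps followed by a number and, in some, a letter, out of 21887 protein-coding genes on chromosomes 1 to 19, X and Y. By symbol, 49 belong to the large subunit (Mrpl) and 29 to the small subunit (Mrps). The mitochondrial ribosome is built from ribosomal RNAs encoded by the mitochondrial genome and from proteins that are all encoded in the nucleus, made in the cytosol and imported. It translates the few membrane subunits of the respiratory chain and of the ATP synthase that mitochondrial DNA still encodes. The transcription factor MYC is known for binding the promoters of ribosome and mitochondrial genes in growing cells, and it recognises E-box sequences together with its partner MAX.

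The data were peak lists from chromatin immunoprecipitation followed by sequencing (ChIP-seq) of mouse macrophages (C57BL/6, differentiated from bone marrow in L929-conditioned medium and taken on day 7). IL4, the cytokine of alternative macrophage activation, was given at 10 ng/ml and IFNg, the cytokine of classical activation, at 100 ng/ml. STAT6, the factor that IL4 receptors activate directly, was profiled after IL4 for 2 h and after IFNg and IL4 together (IFNg+IL4) for 2 h. IRF1, a factor induced by IFNg, JUNB, a member of the AP-1 family, and CEBPB, a C/EBP factor of myeloid cells, were each profiled in untreated cells, after IFNg for 4 h and after IFNg+IL4 for 4 h. MYC was profiled in untreated cells, after IL4 for 2 h and 4 h and after IFNg+IL4 for 2 h and 4 h. The titles of the IRF1, JUNB, CEBPB and MYC samples name the cells wild type, and those of STAT6 give no genotype. Each of the 16 combinations was 1 library, and 1 input library completed the 17. With 1 library per group no difference between treatments has a replicate check, and no test between them is given. The labels do not say whether a library was made from 1 mouse or from pooled cells.

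A peak is a stretch of the genome where the authors' peak caller found more ChIP fragments than in the control, and its summit is the position of highest signal. A gene counted as having a peak when at least 1 summit fell inside it or no more than 5 kb outside. The lists held from 244 to 24927 peaks. Shares are printed with exact 95% Clopper-Pearson intervals, which treat genes or peaks as independent draws and cover counting error only. Peak strength was compared only as a rank within a list, by the authors' −log10 p.

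MYC was listed near most mitochondrial ribosomal protein genes after IL4 and near few of them in untreated cells. In untreated cells 6 of 78 (7.69%, interval 2.88 to 15.99%) had a MYC peak, beside 2.94% of all protein-coding genes, a share within the interval. After IL4 for 2 h 67 of 78 (85.9%, 76.2 to 92.7%) had one, beside 41.7% of all genes. After IL4 for 4 h the count was 58 (74.4%, 63.2 to 83.6%), beside 35.3%. With IFNg+IL4 the count was 26 at 2 h (33.3%, 23.1 to 44.9%), beside 14.5%, and 32 at 4 h (41.0%, 30.0 to 52.7%), beside 15.7%. In the 5 MYC lists the share of members was between 2.06 and 2.61 times the share of all genes. The members are short genes, with a median length of 7690.5 bp against 17169 bp for all genes, so the window around them covered less sequence. Both subunits had similar shares in the IL4 lists, with 42 of 49 large-subunit and 25 of 29 small-subunit genes at 2 h. In the IFNg+IL4 2 h list these were 19 of 49 and 7 of 29.

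**Figure D1:**
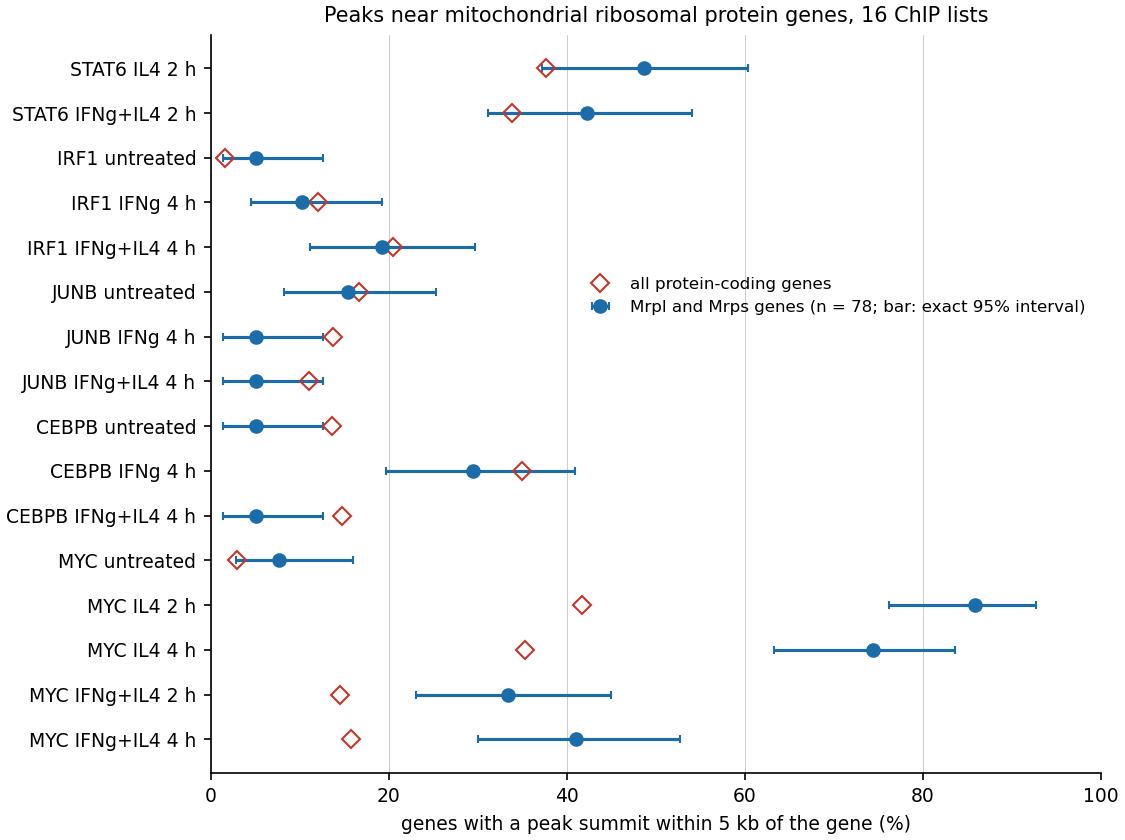
Percent of genes with a peak summit within 5 kb (x axis) in each of the 16 ChIP lists (rows). Filled circles with exact 95% intervals are the 78 Mrpl and Mrps genes, open diamonds all 21887 protein-coding genes. In the 4 treated MYC lists the members (33.3 to 85.9%) lie far to the right of all genes (14.5 to 41.7%), whereas in the IRF1 lists after treatment both lie close together.

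The 6 members with a MYC peak in untreated cells were Mrpl18, Mrpl23, Mrpl41, Mrpl43, Mrps18b and Mrps36. All 6 also had a peak in the 4 treated lists, as did 613 of the 644 protein-coding genes with an untreated MYC peak. Of the 6 untreated summits, 3 were nearest to the start of another gene. That of Mrps36 lay 72 bp from the start of Cdk7 and 13645 bp from its own. The summit of Mrpl41 lay 96 bp from the start of Pnpla7, and that of Mrpl18 121 bp from the start of Tcp1. The number of fragments at a summit could be recovered from the deposited fold and −log10 p of a peak, as a whole number, for most MYC peaks. At the peak of Mrpl23, whose product lines the exit of the polypeptide tunnel, 15 fragments were recovered in untreated cells, 74 after IL4 for 2 h, 64 after IL4 for 4 h, 24 after IFNg+IL4 for 2 h and 35 after IFNg+IL4 for 4 h. Mrpl43, a protein found only in mitochondrial ribosomes, had 16, 68, 72, 20 and 26 in the same order. Mrps18b, a mitochondrial homologue of bacterial S18, had 19, 53, 51, 15 and 15. Raw numbers were highest in both IL4 libraries for all 3 genes, but the libraries differed in depth. Mrpl41, a large-subunit protein, had 17, 37, 44, 14 and 16 fragments. Mrps36 had 23, 79, 91, 33 and 41. Its protein, although named after the small subunit, is now known as a component of the alpha-ketoglutarate dehydrogenase complex. For Mrpl18 the untreated number could not be recovered, and the treated libraries gave 50, 44, 22 and 13.

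The untreated library and the IL4 2 h library had nearly the same depth, 0.555 and 0.573 of the input. Divided by relative depth, the IL4 2 h number was 4.78 times the untreated number at Mrpl23 (interval 2.72 to 8.96, counting error only). At Mrpl43 the ratio was 4.12 (2.36 to 7.60) and at Mrps36 3.33 (2.07 to 5.55). At Mrps18b it was 2.70 (1.57 to 4.83) and at Mrpl41 2.11 (1.16 to 3.99). Each of these 5 intervals lay above 1. Over the whole genome the IL4 2 h list held 13211 peaks and the untreated list 495. No such ratio for other genes is given, so the rise cannot be called particular to the members. Only depth was scaled, and each library was 1 ChIP.

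Across the 4 treated MYC lists the members fell into a few patterns. A peak in all 4 lists was found for 22 members, 17 of the large and 5 of the small subunit: Mrpl1, Mrpl12, Mrpl15, Mrpl17, Mrpl18, Mrpl20, Mrpl22, Mrpl23, Mrpl30, Mrpl36, Mrpl38, Mrpl41, Mrpl43, Mrpl49, Mrpl51, Mrpl52, Mrpl54, Mrps2, Mrps18b, Mrps28, Mrps33 and Mrps36. Mrpl12, the stalk protein that also binds the mitochondrial RNA polymerase, was among them, with its IL4 2 h peak at rank 947 of 13211 and its IFNg+IL4 2 h peak at rank 211 of 3034. Another 22 members, 12 large and 10 small, had a peak after IL4 at both times and in neither IFNg+IL4 list. They included Mrpl10, Mrpl33, Mrpl34, Mrps5, Mrps9 and Mrps15. Of all protein-coding genes 10.8% had a peak in all 4 treated lists and 14.9% had the pattern of IL4 alone at both times, against 28.2% of members for each. No member had an IFNg+IL4 peak without an IL4 peak at the same time, which 21 of all genes had at 2 h and 77 at 4 h.

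A MYC peak in the IL4 2 h list alone was found for 9 members (11.5%), beside 7.68% of all genes. Mrpl16, close to the peptidyl transferase centre of the ribosome, had the strongest of these, at rank 2904 of 13211. The others were Mrpl11, Mrpl21, Mrpl32, Mrpl39, Mrpl53, Mrps12, Mrps14 and Mrps18c, which ranked between 7734 and 12913. Mrps12, the homologue of the bacterial decoding-centre protein S12, was at rank 12009. Mrpl58, a peptidyl-tRNA hydrolase that frees stalled mitochondrial ribosomes, was the 1 member listed after IL4 for 4 h alone, at rank 7715 of 9645. These single-list peaks lay mostly in the weaker part of their lists.

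**Figure D2:**
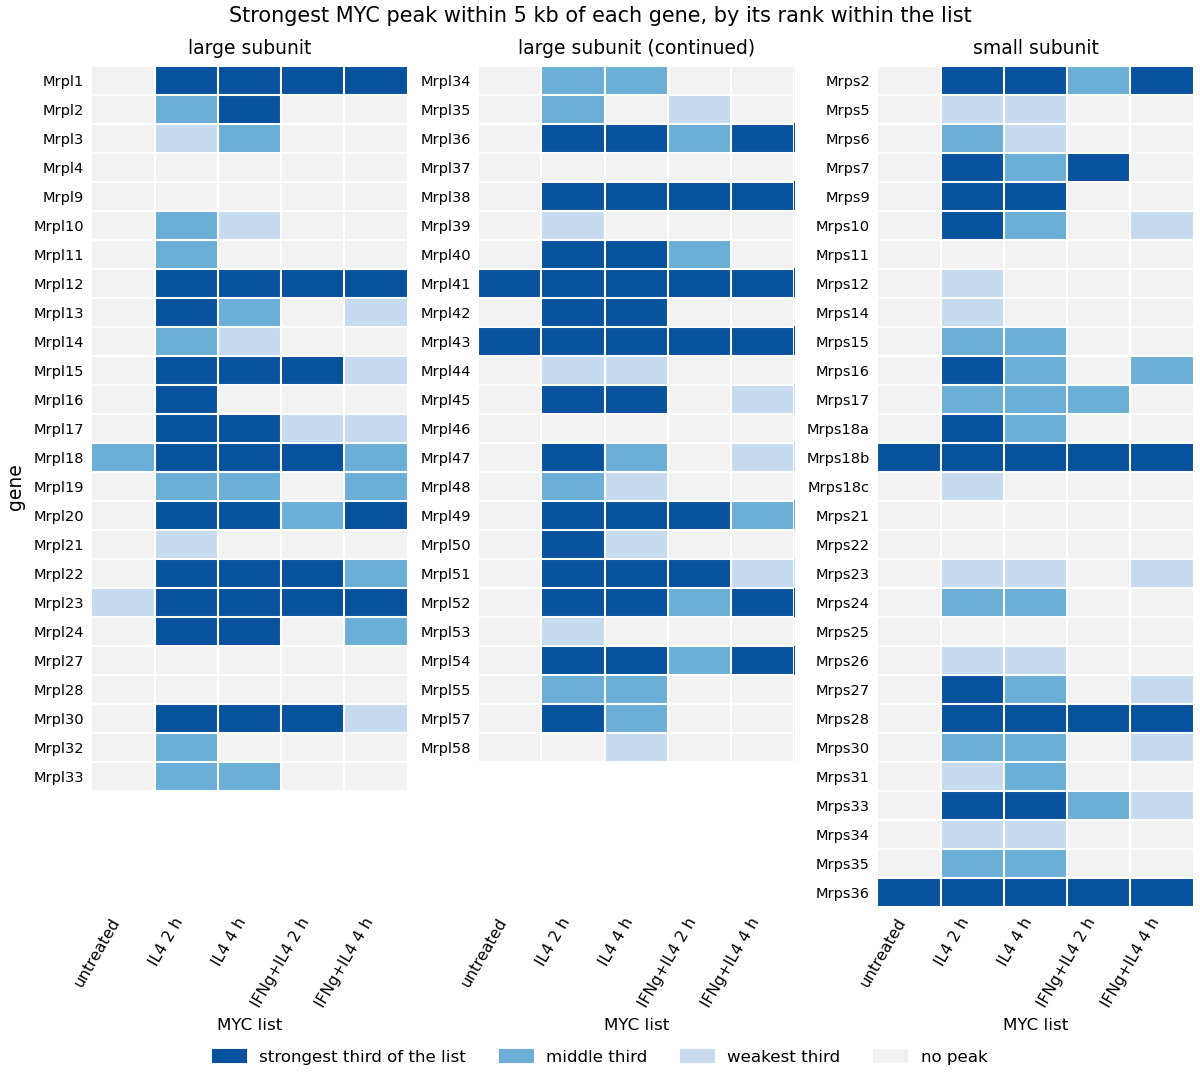
The strongest MYC peak within 5 kb of each of the 78 genes (rows, by subunit) in the 5 MYC lists (columns). Colour gives the part of the list the peak ranks in, from the strongest (dark) to the weakest (light) of 3 equal parts, and grey means no peak. Genes listed in all 4 treated lists, such as Mrpl12 and Mrps28, are mostly dark in the IL4 columns, and 6 of the 9 genes listed after IL4 for 2 h alone, such as Mrps12, are light; Mrpl16 is dark.

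No MYC peak was listed for 10 members (12.8%), beside 56.5% of all genes: Mrpl4, Mrpl9, Mrpl27, Mrpl28, Mrpl37, Mrpl46, Mrps11, Mrps21, Mrps22 and Mrps25. Of these, 6 had no peak of any factor, namely Mrpl9, Mrpl28, Mrpl37, Mrps21, Mrps22 and Mrps25. Genes with no peak in any of the 16 lists made up 7.69% of members and 38.7% of all genes. Mrpl46 and Mrps11 start 42 bp apart on opposite strands, and both lacked MYC.

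The MYC libraries differed in depth, which touches every comparison of IL4 with IFNg+IL4. Relative to the input the depths were 0.573 and 0.876 for IL4 at 2 h and 4 h and 0.3295 and 0.3685 for IFNg+IL4 at 2 h and 4 h. The IL4 lists were therefore scaled to the depth of the IFNg+IL4 2 h library, by the expected strength of each peak at that depth. Peaks without a recovered number of fragments were left out whatever their strength, while the IFNg+IL4 2 h list kept all 3034. Numbers were recovered for 13072 of 13211 peaks after IL4 for 2 h and 9550 of 9645 at 4 h. For IFNg+IL4 at 4 h it was 3247 of 3402. Mrpl52, whose only IL4 4 h peak (rank 849 of 9645) had no recovered number, was therefore not counted at 4 h. This scaling was added once the values were known. At 2 h the count of members after IL4 was then 56 (71.8%, beside 34.8% of all genes), still far above the 26 of IFNg+IL4. At 4 h it was 34 (43.6%, beside 21.5%), against 31 (39.7%, beside 14.9%) for IFNg+IL4 scaled in the same way. With peak strength scaled in this way, members with MYC were thus 56 against 26 at 2 h and differed by little at 4 h. When the same number of strongest peaks was taken from each treated list instead, the counts were 29 and 28 members after IL4 at 2 h and 4 h and 26 and 31 after IFNg+IL4, beside 14.3 to 15.5% of all genes. Among equal numbers of strongest peaks, members were thus about as many after IL4 as after IFNg+IL4.

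The height of the summits was compared at peaks present in all 4 treated lists. Of 23 such peaks near members, 21 had a whole number of fragments recovered in every list. Per unit of depth, the sum over these peaks after IFNg+IL4 was 0.653 (interval 0.573 to 0.743) of that after IL4 at 2 h, and 20 of the 21 peaks were lower. At 4 h the ratio was 0.975 (0.861 to 1.10), with 14 of 21 lower. Within the IL4 lists, 4 h stood at 0.675 (0.614 to 0.742) of 2 h, and all 21 peaks were lower at 4 h. Within IFNg+IL4, 4 h stood at 1.01 (0.865 to 1.17) of 2 h. At these summits the IL4 2 h library was therefore the high one, and the other 3 treated libraries were close to each other. At Mrpl38, for example, the depth-scaled numbers were 106 after IL4 for 2 h, 74.2 after IL4 for 4 h, 51.6 after IFNg+IL4 for 2 h and 67.8 after IFNg+IL4 for 4 h. At Mrpl1, the protein of the ribosome's L1 stalk, they were 73.3, 50.2, 42.5 and 38.0. Near all protein-coding genes 1598 peaks gave ratios of 0.687 (0.677 to 0.698) for IFNg+IL4 over IL4 at 2 h and 0.989 (0.975 to 1.00) at 4 h. The members thus had ratios close to those of other genes, and nothing in this measure was particular to them. These ratios compare libraries, not replicated conditions, and cover only peaks strong enough to be listed in all 4.

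**Figure D3:**
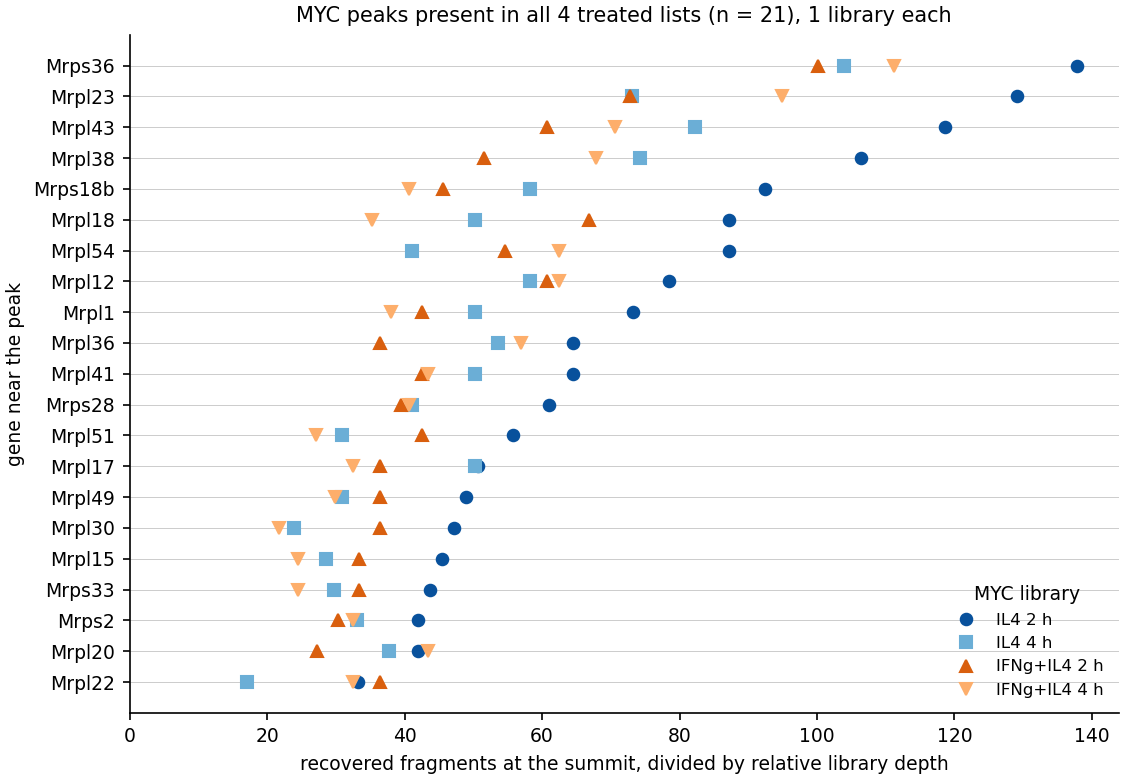
Recovered fragments at the summit divided by relative library depth (x axis) for the 21 MYC peaks near members that were present in all 4 treated lists (rows), with 1 library per symbol. Circles (IL4 2 h) lie to the right of the upward triangles (IFNg+IL4 2 h) in every row but that of Mrpl22, and the other 3 libraries have no common order.

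Read peak by peak, 29 of the 92 MYC peaks near members after IL4 for 2 h overlapped a peak of the IFNg+IL4 2 h list (31.5%, 22.2 to 42.0%), beside 21.7% of the IL4 peaks near any gene. Conversely, 30 of 30 IFNg+IL4 peaks near members overlapped an IL4 peak, beside 97.7% near any gene. At 4 h 32 of 73 IL4 peaks (43.8%, 32.2 to 55.9%) overlapped an IFNg+IL4 peak, beside 31.2% near any gene. The overlap followed peak strength. The list was split by rank into 3 equal parts. In the strongest part 25 of 39 peaks near members overlapped (64.1%, 47.2 to 78.8%, beside 52.9% near any gene), in the middle part 4 of 26 (15.4%, beside 8.27%) and in the weakest part 0 of 27 (interval up to 12.8%, beside 2.30%). Between IL4 at 2 h and 4 h the overlap was 69 of 92 (75.0%, 64.9 to 83.4%), beside 64.6% near any gene. The strengths after IL4 for 2 h were ordinary. The strongest peak of the 59 members with a peak and an annotated start lay, at the median, in the top 28.9% of that list. For all such genes it was 32.7%. After IL4 for 4 h the medians were 37.7% for members and 36.0% for all such genes. After IFNg+IL4 they were 29.7 and 42.5% at 2 h, where member peaks ranked higher, and 39.6 and 42.2% at 4 h.

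MYC summits near members sat close to transcription starts. An annotated start was available for 69 of the 78 members and 17492 of all genes; the 9 without one were Mrpl4, Mrpl13, Mrpl15, Mrpl19, Mrpl38, Mrpl54, Mrps28, Mrps34 and Mrps35. Of the 59 members with a start and an IL4 2 h peak, the strongest summit lay at a median of 82 bp from the start, beside 269 bp for all genes. Within 500 bp lay 53 of 59 (89.8%), beside 59.7% of all genes. Counting only summits within 1 kb of a start, 5 of 69 members (7.25%) had MYC in untreated cells, beside 2.07% of all genes with a start. After IL4 for 2 h 57 of 69 members (82.6%) had it, beside 33.1%. The numbers were 47 (68.1%, beside 27.7%) at 4 h, 20 (29.0%, beside 10.7%) after IFNg+IL4 for 2 h and 23 (33.3%, beside 11.4%) at 4 h.

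**Figure D4:**
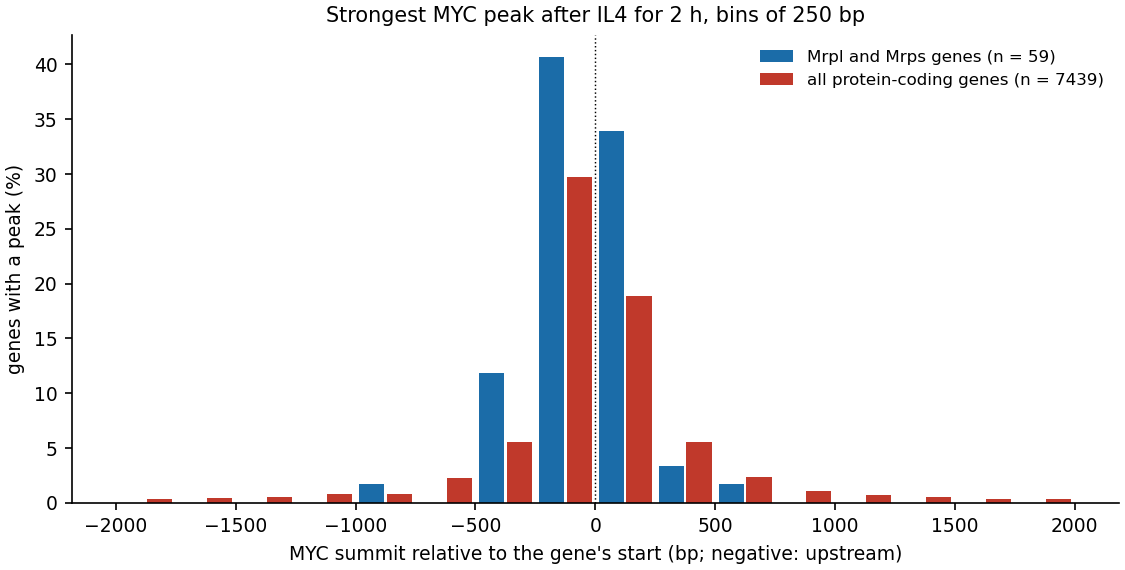
Distance of the strongest MYC IL4 2 h summit from the gene's start (x axis, bp, bins of 250 bp) as a percent of genes with a peak (y axis), for 59 members and 7439 protein-coding genes. Summits beyond 2000 bp, 6.78% of members and 29.7% of all genes, are not drawn. The 2 bins beside the start hold 40.7% and 33.9% of members and 29.7% and 18.8% of all genes.

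Not every listed peak belonged to the member's own start. Of the 59 strongest IL4 2 h summits, 44 were nearest to the member's start and 15 were nearer to that of another gene. This was not counted for all genes, so these numbers cannot be called high or low. The strongest of all, near Mrps36 (rank 38 of 13211), lay 4910 bp beyond the end of that gene, 88 bp from the start of Cdk7, a kinase of the general transcription factor TFIIH. The strongest IL4 2 h summits of Mrpl43, Mrpl18, Mrpl41 and Mrpl49 were nearest to the starts of Twnk (the mitochondrial DNA helicase), Tcp1 (a subunit of the cytosolic chaperonin), Pnpla7 and Fau, in that order. Mrpl22 had a summit within 112 bp of the start of the interferon-inducible Gm12250 in all 4 treated lists, and a stronger one next to Gemin5 in both IL4 lists. At its own start it had 1 summit, after IL4 for 2 h, at rank 11982 of 13211. A start on the opposite strand within 1 kb upstream was found for 24 of 69 members (34.8%), beside 8.48% of all genes with a start.

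The promoters of members were rich in CpG. The median window, 250 bases before to 50 after a start, held 21 CpG in members and 13 in all genes, and 5.33% of the 75 member windows had fewer than 10, beside 43.2% of all 21263 windows. Among genes with at least 10 CpG at a start, a comparison chosen after the values were seen, MYC after IL4 for 2 h lay within 1 kb of the start in 55 of 67 members (82.1%), beside 52.7% of such genes, and after IFNg+IL4 for 2 h in 19 (28.4%), beside 17.5%. Among genes with a divergent neighbour the shares were 20 of 24 members (83.3%) and 73.6% of all such genes after IL4, and 9 (37.5%) and 26.9% after IFNg+IL4. Among genes with at least 10 CpG and no divergent neighbour they were 35 of 43 (81.4%) and 49.1% after IL4, and 10 (23.3%) and 15.9% after IFNg+IL4. Among genes with no divergent neighbour, whatever their CpG, the IL4 shares were 37 of 45 members (82.2%) and 29.4%. After IL4 for 2 h the shares of members and other genes were thus closest among divergent promoters. After IFNg+IL4 the closest group depended on whether the difference or the ratio of the shares was taken.

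The letters of a few promoters are given as examples; they lie upstream of the start, whereas several of the summits named lay just downstream. The stretches run 5′ to 3′ toward the gene's start, from RefSeq on GRCm38. They end 1 base before the start, except that of Mrps27 further on. Capitals mark matches, on either strand, to the motifs searched: the E-box CACGTG, its variants with the letters CACGCG and with CATGTG, the ETS site CCGGAAG, the NRF1 core GCATGCGC, the NFY box CCAAT, part of the ZNF143 site with ACTACAA, the AP-1 site TGANTCA, the C/EBP site TTGCNNAA, the IRF site GAAANNGAA and the YY1 site AAGATGGCG. No motif contains another. Mrpl52, Mrpl12 and Mrpl17 are shown because all 4 treated MYC lists had a summit near their start, between 103 bp upstream and 102 bp downstream.
Mrpl52, chr14:54426659-54426908, plus strand: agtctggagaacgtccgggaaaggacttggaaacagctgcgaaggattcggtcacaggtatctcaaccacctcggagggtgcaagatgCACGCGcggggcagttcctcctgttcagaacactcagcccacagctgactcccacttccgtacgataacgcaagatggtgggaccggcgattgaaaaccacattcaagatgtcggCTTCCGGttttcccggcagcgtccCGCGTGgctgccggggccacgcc
Mrpl12, chr11:120484387-120484636, plus strand: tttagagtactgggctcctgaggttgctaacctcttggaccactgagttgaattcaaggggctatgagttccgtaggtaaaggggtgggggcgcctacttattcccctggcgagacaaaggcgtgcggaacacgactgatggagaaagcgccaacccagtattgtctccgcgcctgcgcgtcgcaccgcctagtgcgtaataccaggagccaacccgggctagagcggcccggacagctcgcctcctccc
Mrpl17, chr7:105811088-105811337, minus strand: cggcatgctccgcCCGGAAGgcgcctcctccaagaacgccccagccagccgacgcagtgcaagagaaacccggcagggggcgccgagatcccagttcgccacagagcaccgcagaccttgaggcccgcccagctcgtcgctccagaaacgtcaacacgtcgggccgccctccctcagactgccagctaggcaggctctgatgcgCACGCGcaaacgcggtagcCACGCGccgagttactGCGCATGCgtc
Mrpl52 held CACGCG at −162 and −23 and the ETS site at −47, counted from the start. Mrpl17 held CACGCG at −46 and −27 and the NRF1 core at −11. The 250 bases of Mrpl12 held none of the motifs, its IL4 2 h summit lay 21 bp downstream of the start, and 1 CACGCG stood in the 50 bases after the start, which are not printed.

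For comparison, Mrps21 and Mrps22 are members with no peak of any factor, and Mrps36 is the member whose listed MYC peak lay at Cdk7, far from its own start.
Mrps21, chr3:95871515-95871764, minus strand: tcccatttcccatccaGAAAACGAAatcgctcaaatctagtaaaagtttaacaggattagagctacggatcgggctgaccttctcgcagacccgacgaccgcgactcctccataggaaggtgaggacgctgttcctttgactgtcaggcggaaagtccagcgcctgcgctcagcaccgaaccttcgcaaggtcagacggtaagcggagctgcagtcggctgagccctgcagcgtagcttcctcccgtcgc
Mrps22, chr9:98601680-98601929, minus strand: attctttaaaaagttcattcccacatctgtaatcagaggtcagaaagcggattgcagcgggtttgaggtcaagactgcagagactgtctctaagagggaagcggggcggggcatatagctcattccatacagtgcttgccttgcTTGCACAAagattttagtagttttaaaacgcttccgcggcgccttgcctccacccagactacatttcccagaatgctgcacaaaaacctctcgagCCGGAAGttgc
Mrps36, chr13:100744660-100744909, minus strand: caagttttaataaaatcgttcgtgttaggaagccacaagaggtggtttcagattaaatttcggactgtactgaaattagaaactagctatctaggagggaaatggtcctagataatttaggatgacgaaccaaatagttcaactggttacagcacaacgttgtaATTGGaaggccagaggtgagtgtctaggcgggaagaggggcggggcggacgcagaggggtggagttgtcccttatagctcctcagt
Mrps21 held 21 CpG and an IRF match at −234. Mrps22 held 10 CpG, a C/EBP match at −106 and the ETS site at −11. Mrps36 held 9 CpG and CCAAT at −86. A match describes letters and not a binding site, and the windows without MYC were not devoid of them.

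Over all member windows the E-box CACGTG was as frequent as elsewhere, in 7 of 75 (9.33%) beside 7.84% of all windows. Windows of 1 gene can overlap, and those of Mrpl2 overlapped and each held it. By gene, 5 of the 69 members with a start held it, beside 1559 of all 17492 genes with a start. CACGCG was in 13 (17.3%, beside 12.1%) and CATGTG in 4 (5.33%, beside 11.5%). The ETS site CCGGAAG was in 26 (34.7%, beside 11.6%), the NRF1 core in 8 (10.7%, beside 3.52%) and the YY1 motif in 8 (10.7%, beside 1.83%). ACTACAA was in 5 (6.67%, beside 3.60%), and CCAAT was in 30 (40.0%, beside 38.2%). TGANTCA was in 3 (4.00%, beside 6.99%), TTGCNNAA in 3 (4.00%, beside 10.2%) and GAAANNGAA in 7 (9.33%, beside 8.15%). MYC at the start was not limited to members with the E-box. After IL4 for 2 h 4 of 5 members with CACGTG and 53 of 64 without it (82.8%) had MYC within 1 kb of the start, whereas over all genes the shares were 55.2% with and 31.0% without.

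STAT6 was listed near 38 members after IL4 for 2 h (48.7%, 37.2 to 60.3%), beside 37.6% of all genes, and near 33 after IFNg+IL4 (42.3%, 31.2 to 54.0%), beside 33.8%. Both background shares lay within the intervals. At the start the shares lay further apart, with 27 of 69 members (39.1%) after IL4 beside 18.1% of all genes, and 24 (34.8%) beside 15.3% after IFNg+IL4. STAT6 at the start went with MYC at the start. After IL4 26 of the 57 members with MYC there also had STAT6 (45.6%), against 1 of the 12 without MYC (8.33%), and over all genes these shares were 41.0% and 6.69%. Split by MYC, the members thus had shares near those of other genes after IL4. After IFNg+IL4 the shares were 9 of 20 with MYC (45.0%, beside 41.0%) and 15 of 49 without (30.6%, beside 12.2%). Among genes with a divergent neighbour STAT6 was at the start of 6 of 24 members (25.0%) after IL4, beside 35.2%, and among genes without one at the start of 21 of 45 (46.7%), beside 16.5%. Among genes with at least 10 CpG the shares were 37.3% and 25.8%. Of the 57 STAT6 peaks near members 33 (57.9%, 44.1 to 70.9%) overlapped a MYC IL4 2 h peak, beside 26.3% near any gene. In reverse, 34 of the 92 MYC peaks (37.0%, 27.1 to 47.7%) overlapped a STAT6 peak, beside 39.3% near any gene. The strongest STAT6 peak of the 32 members with a peak and a start lay, at the median, in the top 65.0% of the IL4 list, beside 43.3% for all such genes. The strongest in the IL4 list were those of Mrpl15 and Mrpl48. That of Mrpl15, at rank 55 of 24927, lay inside the gene, which has no annotated start to measure from. That of Mrpl48, at rank 621, lay inside the gene and 30098 bp downstream of the nearest of its annotated starts. Mrpl53 had a STAT6 summit 261 bp upstream of its start at rank 4467.

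IRF1 peaks were listed for 4 members in untreated cells (5.13%, 1.41 to 12.6%), beside 1.54% of all genes. After IFNg there were 8 (10.3%), beside 12.0%, and after IFNg+IL4 15 (19.2%), beside 20.4%. Within 1 kb of a start the counts were 3 (beside 1.17%), 4 (5.80%, beside 3.30%) and 9 of 69 (13.0%, beside 6.35%). The 4 genes of the untreated list, Mrpl22, Mrpl46, Mrps11 and Mrps27, were listed in all 3 IRF1 lists. Mrps27, a pentatricopeptide-repeat protein of the small subunit, had its summits 60, 42 and 54 bp upstream of its start, at rank 12 of 244 in untreated cells, 88 of 4189 after IFNg and 196 of 8226 after IFNg+IL4. It shares this promoter with Ptcd2 on the other strand. The bases between both genes, from −107 to −20, are shown because all 3 summits fell in them. They held the ETS site at −48 and no IRF match.
Mrps27, chr13:99344679-99344766, plus strand: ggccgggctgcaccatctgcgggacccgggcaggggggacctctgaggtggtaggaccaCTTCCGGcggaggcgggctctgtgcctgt
Mrpl46 and Mrps11 shared 1 peak between their starts or just inside either gene, at rank 137, 1419 and 1024 in the same order of lists, and neither had MYC in any list. The summit near Mrpl22 lay within 101 bp of the start of Gm12250 and 12 kb from that of Mrpl22. Its rank was 194 of 244 in untreated cells, 29 of 4189 after IFNg and 11 of 8226 after IFNg+IL4. Mrpl32 (ranks 1111 and 1491) and Mrps28 (ranks 3640 and 3198) were listed after IFNg and after IFNg+IL4 and not in untreated cells.

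JUNB and CEBPB were listed near 4 members each in 4 of their 6 lists, and near more in untreated cells for JUNB and after IFNg for CEBPB. JUNB was near 12 members in untreated cells (15.4%, 8.21 to 25.3%), beside 16.7% of all genes, near 4 after IFNg (5.13%, 1.41 to 12.6%), beside 13.8%, and near 4 after IFNg+IL4 (5.13%), beside 11.0%. The untreated JUNB list alone held peaks with a −log10 q below 2. At a −log10 q of at least 2 it held 3 members (3.85%), beside 10.8%. CEBPB was near 4 members in untreated cells (5.13%), beside 13.6%, near 23 after IFNg (29.5%, 19.7 to 40.9%), beside 34.9%, and near 4 after IFNg+IL4 (5.13%), beside 14.8%. With the CEBPB list after IFNg cut to as many strongest peaks as the IFNg+IL4 list held, the count after IFNg was 5 (6.41%), beside 14.9%. No small-subunit gene had a peak in the JUNB lists after IFNg or IFNg+IL4, nor in the CEBPB lists of untreated and IFNg+IL4-treated cells. In these 4 lists none of the 69 members with an annotated start had a summit within 1 kb of it. Of all genes with a start 1.74%, 1.37%, 2.85% and 3.38% did. Mrpl13, which has no annotated start, could not be counted there. It had a JUNB summit 106 bp outside the gene after IFNg (rank 2240 of 7428). After IFNg+IL4 its strongest JUNB summit lay 81 bp outside the gene (rank 1406 of 5556). In untreated cells JUNB was at the start of 3 of 69 members (4.35%), beside 3.21%. Of these, Mrpl16 and Mrps18c had a −log10 q below 2, and Mrpl48 did not. After IFNg CEBPB was at the start of 9 (13.0%), beside 10.4%.

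The CEBPB peaks of 4 members were found in every treatment. Mrpl1, Mrpl19, Mrpl45 and Mrpl54 were the 4 members listed in untreated cells, and also those listed after IFNg+IL4. The peak of Mrpl1 lay 34602 bp downstream of the start in untreated cells, at rank 1458 of 5540, and at 34600 and 34607 bp after IFNg and IFNg+IL4, at rank 1877 of 21499 and 2287 of 6278. At a second site of Mrpl1, between 11738 and 11842 bp from the start, JUNB and CEBPB were both listed in all 3 of their lists. The CEBPB summit near Mrpl54 lay 16 to 50 bp from the start of Apba3, and that of Mrpl45 5541 to 5586 bp upstream. Mrpl39 carried the strongest JUNB peak of a member, at rank 301 of 5556 after IFNg+IL4, 21963 bp downstream of its start and 5000 bp beyond the end of the gene, at the limit of the window. Other peaks lay at the member's start. In untreated cells JUNB was 4 bp upstream of a start of Mrpl48 (rank 4562 of 9229). It was also 65 bp upstream of that of Mrpl16 (rank 5864), with a −log10 q of only 1.59. After IFNg CEBPB was 92 bp upstream of that of Mrpl52 (rank 6497 of 21499).

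Other genes of mitochondrial translation were counted in the same way, beside the 41.7, 35.3, 14.5 and 15.7% of all genes in the treated lists, with IL4 first and the earlier time before the later. The 5 mitoribosome proteins with other symbols (Dap3, Ptcd3, Chchd1, Aurkaip1 and Gadd45gip1) were all listed after IL4 at both times, 3 of them after IFNg+IL4 for 2 h and 2 at 4 h, and none in untreated cells. Of 11 translation factors 10 were listed after IL4 at 2 h, 10 at 4 h, 2 after IFNg+IL4 for 2 h (18.2%; Mtif2 and Mtif3, the initiation factors) and 4 at 4 h (36.4%). Of 17 mitochondrial tRNA synthetases the counts were 15, 14, 4 and 7, and of 23 assembly factors 16, 16, 9 and 6. Of 8 genes of mitochondrial DNA expression they were 8, 7, 1 and 3, where Twnk was the 1 gene of the IFNg+IL4 2 h list. Nuclear-encoded complex I subunits, which are made in the cytosol, gave 24, 19, 8 and 6 of 38, the last of which (15.8%) was at the share of all genes. Scaled in depth as for the members, translation factors gave 10, 4, 2 and 4 in the same order. The tRNA synthetases gave 14, 9, 4 and 7. Assembly factors gave 16, 10, 9 and 6, mitochondrial DNA expression 6, 4, 1 and 3, and complex I 20, 13, 8 and 6. The 5 mitoribosome proteins with other symbols gave 5, 2, 3 and 2. All genes then stood at 34.8, 21.5, 14.5 and 14.9%. At 4 h the treatments were thus closer in each of these lists than before scaling.

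The cytosolic ribosomal proteins, the counterpart of the members in the other ribosome, differed in pattern. Of 77 genes, 42 had MYC in untreated cells (54.5%), 73 after IL4 at 2 h, 73 at 4 h, 69 after IFNg+IL4 for 2 h (89.6%) and 73 at 4 h (94.8%). Their peaks were far stronger: at the median they lay in the top 2.84% of the IL4 2 h list, against 28.3% for the members with a peak. The cytosolic genes thus had MYC in the IFNg+IL4 lists nearly as often as after IL4, while for the mitochondrial ones the share was 33.3% at 2 h and 41.0% at 4 h. Scaled as above, the IL4 2 h list held 72 of the 77 cytosolic and 56 of the 78 mitochondrial genes. At 4 h the scaled counts were 72 after IL4 and 70 after IFNg+IL4 for the cytosolic genes and 34 and 31 for the mitochondrial ones, so both sets then differed little between the treatments.

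**Figure D5:**
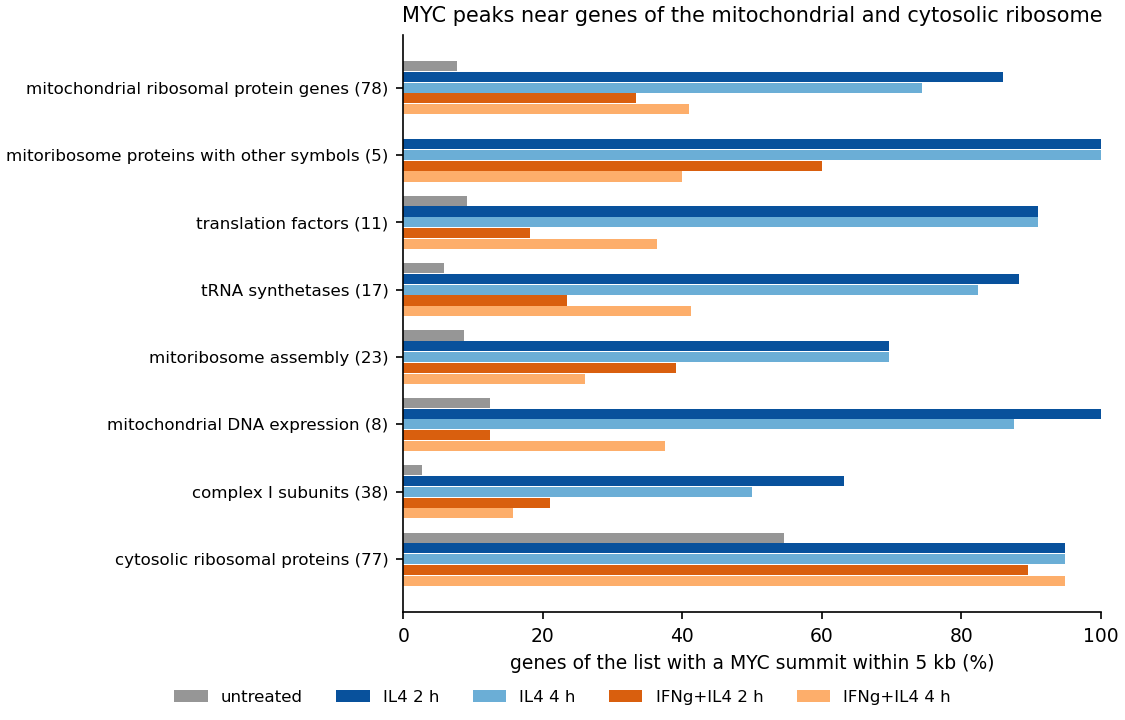
Percent of genes with a MYC summit within 5 kb (x axis) for the members and 7 related lists (rows, number of genes in parentheses), in the 5 MYC lists (bar colours). The bars are not scaled for library depth. In every list of mitochondrial genes both blue bars (IL4) are longer than both orange bars (IFNg+IL4) and the grey bar (untreated). The cytosolic ribosomal proteins are long in all 4 treated lists.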

How the data were processed

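Peak lists of 16 ChIP libraries and 1 input library were used, each called by the authors from 1 library. The submitters' processing notes name Bowtie2 (2.2.6), MACS2 (2.1.0.20150731) and the mouse build mm10/GRCm38, without settings. Per peak, the deposited lists give a score, a fold enrichment (a ratio over control), the authors' −log10 p and −log10 q, and a summit offset in bp. The deposited score is 10 times the −log10 q, or the −log10 p in untreated JUNB, as the values show.

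ChIP peaks overlapping any of 128 input peaks were removed (0 to 39 per list); none of the input peaks lay near a member. Genes came from RefSeq (GRCm38.p6) and starts and promoters from its table. All shares were computed over all protein-coding genes and no test was run. Summit fragments and relative depth of the MYC libraries were recovered from the deposited fold and −log10 p, with pileups counted as whole within 0.004 fragments; this worked for 95.2 to 99.0% of up to 2000 peaks per list, assumes 1 input for all lists, and was tested on simulated data. The other libraries' depth was not used. Python 3.11.15 with numpy 2.4.6, pandas 2.3.3 and scipy 1.17.1 was used.

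The members, gene lists, motifs and naming rule were chosen with earlier results of these data known. By that rule the members with an untreated MYC peak, the 10 strongest in IL4 2 h and those with no peak are named. So are up to 15 in all 4 treated lists and up to 6 per list found in 1 MYC list alone. Up to 6 per other factor are named too. Beyond the rule, the text names all 22 members in all 4 treated lists, all 9 in IL4 2 h alone, and some others. The 4 promoters that rule gave were Mrps36, Mrpl23, Mrpl43 and Mrpl27; only that of Mrps36 is clear of gene spans, and the others printed were chosen after values were seen.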

Additional observations from a re-analysis of the deposited data

How the results depend on the processing

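The 16 counts of members kept to within 1.5 times their value when input peaks were not removed, and 15 of 16 did so at a −log10 q of at least 5, the exception being untreated JUNB with 1 member. Summits within 1 kb of a start were counted for the 69 members with an annotated start. IRF1 then gave 4 members after IFNg and 9 after IFNg+IL4, untreated JUNB 3 and CEBPB after IFNg 9. The other JUNB and CEBPB lists gave 0 each. Within 20 kb the counts were 13 and 23 for IRF1 after IFNg and IFNg+IL4, 10 and 9 for JUNB after the same treatments, and 10, 36 and 11 for CEBPB untreated, after IFNg and after IFNg+IL4. Lists were also cut to as many strongest peaks as the shortest treated list of the factor held. Untreated lists shorter than that stayed whole. IRF1 after IFNg+IL4 then gave 7 (8.97%, beside 11.9% of all genes). JUNB gave 3 untreated (3.85%, beside 11.1%) and 1 after IFNg (1.28%, beside 11.0%). CEBPB after IFNg gave 5 (6.41%, beside 14.9%). MYC after IL4 gave 29 at 2 h (37.2%, beside 15.5%) and 28 at 4 h (35.9%, beside 15.5%). Untreated JUNB held 3 members at a −log10 q of at least 2. Scaled to equal depth, with peaks lacking a recovered number of fragments left out, MYC after IL4 for 4 h held 34. A reciprocal overlap of 50% was also used in place of 1 bp. Then 0% of the 6 untreated MYC peaks near members were shared with IL4 2 h, beside 7.71% near any gene. From IL4 2 h to IFNg+IL4 2 h the share was 14.13% (beside 8.09%), and 43.33% in reverse (beside 33.73%). From IL4 4 h to IFNg+IL4 4 h it was 17.81% (beside 15.19%), and 35.14% in reverse (beside 42.51%). From IL4 2 h to 4 h it was 59.78% (beside 52.48%), and 75.34% in reverse (beside 70.62%). The cause was not tested. No paired analysis was possible because each group was 1 library. Lists from shallow libraries miss weak peaks, so a gene without a peak may still be bound.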
